A study of Mus musculus with 6 samples.

Results

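The elastic fibre and microfibril genes described here are *Eln*, *Fbn1*, *Fbn2*, *Fbln1*, *Fbln2*, *Fbln5*, *Efemp2*, *Emilin1*, *Mfap2* and *Mfap5*. They were picked out of the tables by gene symbol, from a list drawn up with earlier results of these data known, and they are 10 of the 16279 genes listed in at least 1 of the deposited bulk RNA-seq tables. The libraries came from male F1 mouse embryonic stem cells (mESCs) of the cross labelled C57BL/6 x CAST/EiJ, with C57BL/6J mothers in the study's methods, and from cardiac precursor cell cultures (CPCCs) made from them, with 3 libraries of each. The mESCs were clones grown from single cells of 3 male lines, each line from its own blastocyst, and were kept without feeder cells in 2i medium with LIF, which holds them in the pluripotent state. For CPCCs, mESCs were aggregated in hanging drops, grown as embryoid bodies with ascorbic acid, dissociated, and passaged in medium with EGF and Fgf2, and cells of the fourth passage were used. These cultures are mixtures of cell types, both groups carry the hybrid genome, and neither the labels nor the methods name an engineered allele. Following the columns of the tables, S01 to S03 denote the mESC libraries and S04 to S06 the CPCC libraries.

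An elastic fibre has a core of elastin that lysyl oxidases cross-link, laid down on a bundle of fibrillin microfibrils. Short fibulins carry elastin and the cross-linking enzymes to the microfibrils, emilin sits where elastin and microfibrils meet, and the microfibril-associated glycoproteins bind fibrillin. In the heart and great vessels these fibres give the walls and valves their recoil, and fibrillin microfibrils also hold latent TGF-beta in the matrix.

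The mESC libraries held 6442639 to 6907330 estimated counts each, and those of CPCCs 8468819 to 11436062. Levels are given in CPM, counts per 1000000 after TMM normalization of the library sizes, and 3 counts equal 0.298 to 0.463 CPM in a single library. The 8 mESC markers, among them *Nanog* and *Pou5f1*, were all lower in CPCCs, with a summed level of 4851 to 5219 CPM in mESCs and 160.2 to 397 CPM in CPCCs. Of 8 cardiac precursor markers, *Tbx20* passed the test and was higher in CPCCs, 2 were tested and not called, 4 were listed for CPCCs only and *Tbx5* for mESCs only. Their summed level was 5.10 to 11.5 CPM in mESCs and 42.7 to 111 CPM in CPCCs, and *Nkx2-5*, which defines early cardiac cells, had 16, 0 and 8 counts in S04, S05 and S06. Far more of the CPCC counts fell on smooth muscle and fibroblast genes. Of 6 smooth muscle markers, 2 were tested and higher and 4 were listed for CPCCs only, with a summed level of 5984 to 11111 CPM against 10.8 to 17.1 CPM in mESCs. Most of the CPCC sum came from *Acta2* and *Tagln*, with means of 4636 and 3662 CPM. *Cnn1* had a CPCC mean of 262 CPM, *Smtn* 48.9 CPM, *Myh11* 25.6 CPM and *Myocd* 2.33 CPM. Of 9 fibroblast and mesenchymal markers, 3 were higher, 1 was not called and 5, among them *Col1a2* and *Postn*, were listed for CPCCs only, with 6079.9 to 9229 CPM against 12.05 to 18.7 CPM. Of 6 cardiomyocyte markers, *Tnnt2* was higher in CPCCs and 3 were listed for CPCCs only. *Actn2* and *Ryr2* had log2 fold changes of -0.64 and -0.33 and were not called. Cardiomyocyte markers summed to 145 CPM in S04, 38.7 CPM in S05 and 52.3 CPM in S06, against 9.73 to 16.8 CPM in mESCs. *Tnnt2* alone had 103, 24.0 and 28.3 CPM in S04, S05 and S06. Epicardial markers summed to 16.4 to 35.1 CPM in CPCCs (15.4 to 23.7 CPM in mESCs), endothelial markers to 11.8 to 23.9 CPM (92.3 to 101 CPM), endoderm markers to 269 to 313 CPM (52.4 to 57.0 CPM) and neural markers to 533 to 568 CPM (49.1 to 55.7 CPM). These sums hide opposite movements: mean levels went from 91.1 to 4.44 CPM for *Pecam1* and from 18.5 to 0.783 CPM for *Msln*, but from 1.15 to 21.2 CPM for *Tbx18*, and *Cdh5* and *Kdr* were listed for CPCCs only. Smooth muscle cells and fibroblasts are known makers of elastic fibres, and the part that the makeup of the cultures plays in the differences below was not tested. In bulk RNA, fewer cells of a type and less RNA per cell cannot be told apart.

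The 10 genes differed unevenly between the cell types. Transcripts of both fibrillins, of *Fbln2* and the short fibulins *Fbln5* and *Efemp2*, and of *Emilin1* were at 6.33 CPM or less in every mESC library, and rose by 17.1- to 265-fold in CPCCs. *Eln* and *Mfap2* were listed for CPCCs only, while *Fbln1* and *Mfap5* had libraries that overlapped between the cell types. Over all 16279 listed genes, 2518 were listed for CPCCs only and 760 for mESCs only. A gene is listed for a cell type from 10 counts over its 3 libraries. The CPCC libraries held more counts, so listing reached lower levels there. All 10 genes are in the CPCC table and 8 in the mESC table, and all 8 passed the filter on low counts. Of these 8, 6 passed edgeR's quasi-likelihood test at an adjusted p under 0.05, all 6 higher in CPCCs and 0 lower. None was lower at an unadjusted p under 0.05 or by DESeq2 either. Over all 12471 genes tested, 61.4% passed in either direction, 31.7% were higher in CPCCs and 29.7% were lower. In the same 6 genes every CPCC library lay above every mESC library, as it did in 35.3% of all genes tested. At the median, the 8 tested genes had a log2 fold change of 5.59, or 5.65 with *Eln* and *Mfap2* placed at their lower bounds, against 0.03 over all genes tested. All 6 called genes rose by at least 4 on the log2 scale, a change reached by 3.83% of all genes tested.

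**Figure D1:**
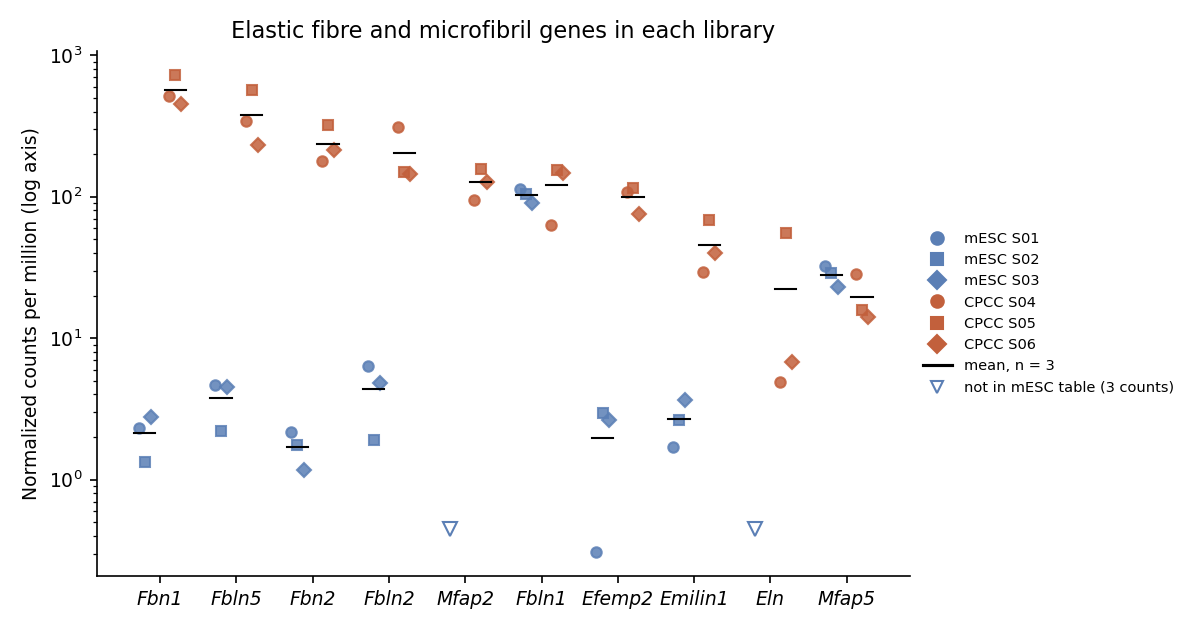
Level of each of the 10 genes in each library, in CPM on a log axis, with the mean of the 3 libraries as a line. Open triangles mark 3 counts for *Eln* and *Mfap2*, which are not in the mESC table. *Fbln1* and *Mfap5* are the only genes of the 10 with overlapping mESC and CPCC libraries.

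The stretch of 250 bases before the transcription start is shown for 4 of the genes, because *Fbn1*, *Fbln5* and *Efemp2* rose together while *Fbln1* was already high in mESCs. *Fbln2*, *Emilin1* and *Mfap2* also had higher levels in CPCCs, and their windows are not shown. That of *Fbln2* holds the GC box marked below, and those of *Emilin1* and *Mfap2* do not. The sequences are from RefSeq on build GRCm38.p6, written 5' to 3' on the strand of the gene, and capitals mark the GC box GGGCGG on either strand. They lie at chr2:125506439-125506688 (minus strand) for *Fbn1*, chr12:101819120-101819369 (minus strand) for *Fbln5*, chr19:5474440-5474689 (plus strand) for *Efemp2* and chr15:85205699-85205948 (plus strand) for *Fbln1*.

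Fbn1: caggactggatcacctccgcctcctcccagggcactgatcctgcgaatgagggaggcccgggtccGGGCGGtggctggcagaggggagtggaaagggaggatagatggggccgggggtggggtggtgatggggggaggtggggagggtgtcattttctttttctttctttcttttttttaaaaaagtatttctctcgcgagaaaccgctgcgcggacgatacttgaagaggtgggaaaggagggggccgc

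Fbln5: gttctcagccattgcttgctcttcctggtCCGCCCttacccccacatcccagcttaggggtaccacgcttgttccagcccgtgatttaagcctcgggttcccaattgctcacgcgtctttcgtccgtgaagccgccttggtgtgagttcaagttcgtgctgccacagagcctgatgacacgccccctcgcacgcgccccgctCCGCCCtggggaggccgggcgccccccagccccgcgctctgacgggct

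Efemp2: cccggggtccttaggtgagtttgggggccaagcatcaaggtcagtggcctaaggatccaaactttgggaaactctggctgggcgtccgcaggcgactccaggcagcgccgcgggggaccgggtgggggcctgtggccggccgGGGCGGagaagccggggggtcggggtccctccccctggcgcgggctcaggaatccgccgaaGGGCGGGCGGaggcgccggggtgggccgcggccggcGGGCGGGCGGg

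Fbln1: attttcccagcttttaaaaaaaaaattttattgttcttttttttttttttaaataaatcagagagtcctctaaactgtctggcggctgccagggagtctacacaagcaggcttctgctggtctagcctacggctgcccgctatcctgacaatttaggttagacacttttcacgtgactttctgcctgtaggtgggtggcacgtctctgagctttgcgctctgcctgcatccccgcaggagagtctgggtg

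Windows were found for 7 of the 10 genes, the other 3 being *Eln*, *Fbn2* and *Mfap5*. Where RefSeq gives several starts for a gene, the window next to the start in the deposited table was taken. The GC box was in 4 of the 7 windows and in 32.7% of all 32851 windows of that length. *Efemp2* held 5 matches, counting overlapping ones, with first bases at -108, -47, -43, -11 and -7 from the start. *Fbln5* held matches at -221 and -48, *Fbn1* at -185 and *Fbln2* at -16. No match was found in the windows of *Fbln1*, *Emilin1* and *Mfap2*. The window of *Efemp2* had 75.6% G and C and that of *Fbln1* 46.4%, against a median of 52.4% over all windows. Other motifs were searched on both strands in the same windows. The TATA box TATAAA was in 0 of 7 windows against 12.4% of all, the AP-1 site TGANTCA in 0 against 6.75%, the TEAD site GGAATG in 1 (*Mfap2*) against 12.6%, the SMAD element CAGAC in 3 against 42.2% and the E-box CANNTG in 5 against 66.2%. With 7 windows these counts are a description of the letters in them.

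*Fbn1* (chr2:125300594-125506439, minus strand, GRCm38) codes for fibrillin-1, the main building block of microfibrils. Its counts were 15, 9 and 19 across S01 to S03, or 2.32, 1.32 and 2.78 CPM, against 5194, 6016 and 3964 across S04 to S06, or 516, 729.5 and 454 CPM. The groups were far apart, and the CPCC libraries differed among themselves by less than 2-fold. Its mean rose from 2.14 ± 0.744 to 567 ± 144 CPM (SD, n = 3 each), a log2 fold change of 8.04 with a standard error (SE) of 0.33 (adjusted p = 1.28e-06 by edgeR). *Fbn2* (chr18:58008623-58209927, minus strand) codes for fibrillin-2, which prevails in embryonic microfibrils. The mESC libraries had 2.16, 1.77 and 1.17 CPM, and the CPCC libraries 179, 319.5 and 214 CPM. Here too S05 was the highest CPCC library, and no CPCC library came near an mESC library. The change on the log2 scale was 7.12 (SE 0.34, adjusted p = 1.61e-06 by edgeR), from 1.70 ± 0.500 to 238 ± 73.0 CPM (SD, n = 3 each).

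The ratio of *Fbn1* to *Fbn2* counts within a library is free of depth. On the log2 scale it was 0.10, -0.40 and 1.198 in the mESC libraries, where each gene has few counts, and 1.52, 1.19 and 1.09 in the CPCC libraries. *Fbn1* thus had 2.12 to 2.88 counts for each count of *Fbn2* in CPCCs. The mESC values spread wider than the CPCC values and overlapped them, and the difference of 0.97 in the mean log2 ratio had p = 0.30 by a two-sided exact permutation test, with 0.10 the smallest p that 3 against 3 allows (0.45 after adjustment over the 3 ratios tested). The exon lengths of these genes, 12004 and 11041 bases, are similar.

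*Mfap2* (chr4:141010424-141015985, plus strand) codes for MAGP-1, a small glycoprotein bound to fibrillin. It is missing from the mESC table, which lists no gene with fewer than 10 counts over its 3 libraries. In CPCCs it had 954, 1296 and 1110 counts, or 94.8, 157 and 127 CPM, a mean of 126 ± 31.2 CPM (SD, n = 3). The 3 libraries spanned 1.66-fold, and against 3 counts per mESC library the mean was at least 282-fold higher in CPCCs. *Mfap5* (chr6:122513584-122529288, plus strand) codes for MAGP-2, its paralogue. It had 209, 196 and 156 counts in mESCs, or 32.3, 28.8 and 22.8 CPM, and 288, 131 and 123 counts in CPCCs, or 28.6, 15.9 and 14.1 CPM. S04 lay within the mESC range, and S05 and S06 lay below it. Its fitted value of log2 fold change was -0.51 (SE 0.31, 95% interval -1.21 to 0.18, adjusted p = 0.17 by edgeR), from 28.0 ± 4.79 to 19.5 ± 7.92 CPM (SD, n = 3 each). Without S04 it was -0.89 and passed as lower in CPCCs (adjusted p = 0.0084 by edgeR, where the adjusted p over all alternatives ran from 0.0084 to 0.415).

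Within CPCCs, *Mfap2* had 3.31, 9.89 and 9.02 counts for each count of *Mfap5* in S04, S05 and S06. In mESCs the order was the opposite. With *Mfap2* placed at 3 counts in each mESC library, its log2 ratio to *Mfap5* was -6.12, -6.03 and -5.70, against a mean of 2.73 ± 0.87 in CPCCs (SD, n = 3). These mESC values are no strict bounds, since fewer than 10 counts over 3 libraries can leave more than 3 in a single library. The direction of this contrast between the paralogues rests on *Mfap2* being absent from the mESC table, and no test was run on the placed values.

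Among the fibulins, *Fbln1* (chr15:85205949-85286295, plus strand) codes for a long fibulin found in basement membranes and elastic fibres. It had 737, 709 and 618 counts in mESCs, or 114, 104 and 90.4 CPM, and 638, 1278 and 1274 counts in CPCCs, or 63.4, 155 and 146 CPM. S04 was below all mESC libraries, and S05 and S06 were above them. The fitted value of log2 fold change was 0.24 (SE 0.31, 95% interval -0.45 to 0.93, adjusted p = 0.52 by edgeR), from 103 ± 11.8 to 121 ± 50.5 CPM (SD, n = 3 each). Without S04 it was 0.56 and passed as higher in CPCCs (adjusted p = 0.0070 by edgeR, in a range over all alternatives from 0.0070 to 0.951). In mESCs, where *Fbln1* was the highest of the 10 genes, *Col1a1*, a defining fibroblast gene, had 0.554 CPM and the whole fibroblast list at most 18.7 CPM.

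**Figure D2:**
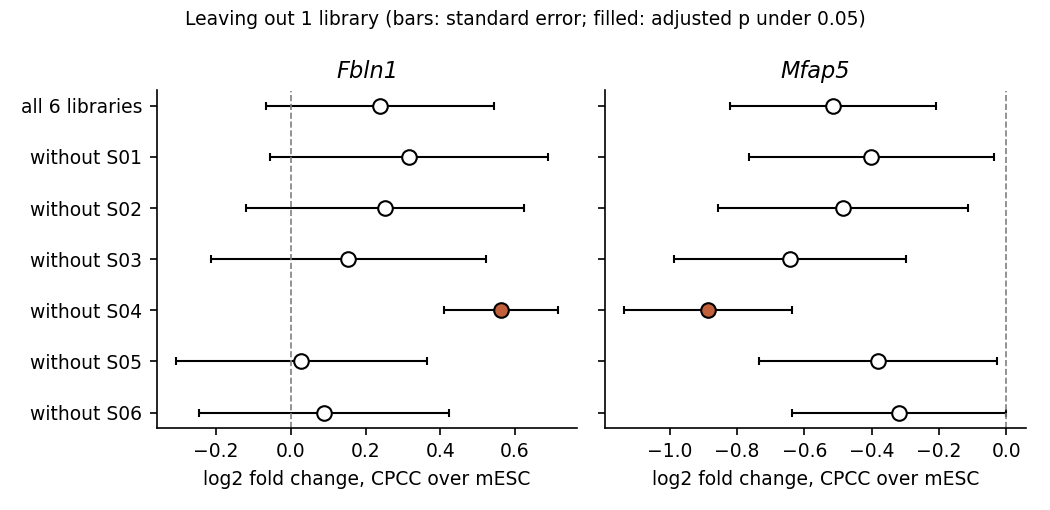
Log2 fold change of *Fbln1* and *Mfap5*, CPCC over mESC, with all 6 libraries and with each library left out, where bars are standard errors and filled points passed at an adjusted p under 0.05. Leaving out S04 gave the only filled point for each gene, 0.56 for *Fbln1* and -0.89 for *Mfap5*.

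*Fbln2* (chr6:91212764-91272541, plus strand) codes for the other long fibulin, a microfibril-binding protein of developing heart valves and vessels. The mESC libraries had 6.33, 1.91 and 4.83 CPM, and the CPCC libraries 313, 149 and 145 CPM. S04 was more than 2-fold above the other CPCC libraries, the reverse of its place for *Fbln1*. The change on the log2 scale was 5.54 (SE 0.48, adjusted p = 2.02e-05 by edgeR), from 4.36 ± 2.25 to 202 ± 96.1 CPM (SD, n = 3 each). For each count of *Fbln2* there were 17.98, 54.5 and 18.7 counts of *Fbln1* in the mESC libraries, but 0.202, 1.04 and 1.01 in the CPCC libraries. The mean log2 ratio fell by 5.44 from mESCs to CPCCs with no overlap between the groups, at p = 0.10 in a two-sided exact permutation test, the smallest p it can give, and 0.30 after adjustment over 3 ratios.

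*Fbln5* (chr12:101746565-101819120, minus strand) codes for a short fibulin that binds elastin and integrins and is needed for fibre assembly. It had 30, 15 and 31 counts in mESCs, or 4.63, 2.21 and 4.53 CPM, and 3433, 4656 and 2029 counts in CPCCs, or 341, 565 and 233 CPM. All CPCC libraries stood high, with S05 more than 2-fold above S06. On the log2 scale it changed by 6.64 (SE 0.44, adjusted p = 5.04e-06 by edgeR), from 3.79 ± 1.37 to 379 ± 169 CPM (SD, n = 3 each). *Efemp2* (chr19:5474690-5481855, plus strand) codes for fibulin-4, which brings lysyl oxidase to elastin. It had 2, 20 and 18 counts in mESCs, or 0.309, 2.94 and 2.63 CPM, and 1093, 952 and 663 counts in CPCCs, or 109, 115 and 76.0 CPM. S01 stood apart at 2 counts, and the CPCC libraries spanned 1.52-fold. The change on the log2 scale was 5.65 (SE 0.49, adjusted p = 2.16e-05 by edgeR), from 1.96 ± 1.44 to 100.02 ± 21.1 CPM (SD, n = 3 each).

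*Fbln5* had 3.14, 4.89 and 3.06 counts for each *Efemp2* count in S04, S05 and S06. In mESCs the ratio was 15.0, 0.75 and 1.72, so S01 lay above and the other libraries below all CPCC libraries. The difference in the mean log2 ratio was 0.53 with p = 0.70 by a two-sided exact permutation test, also 0.70 after adjustment, and without S02 it was -0.34.

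*Eln* (chr5:134702595-134747324, minus strand) codes for tropoelastin, the soluble form of the fibre's core. It is missing from the mESC table, and in CPCCs it had 49, 459 and 59 counts, or 4.87, 55.7 and 6.76 CPM. S05 was 11.4-fold above S04, and the mean of 22.4 ± 28.8 CPM (SD, n = 3) was carried by S05. Against 3 counts per mESC library the mean was at least 50.1-fold higher in CPCCs, and the lowest CPCC library 10.5-fold higher. The second value is no strict bound, since a single mESC library could hold more than 3 counts. The range of *Eln* over the CPCC libraries, 3.50 on the log2 scale, was wider than that of 98.0% of the 13968 genes with a mean of at least 1 CPM in CPCCs. Its log2 ratio to *Fbn1* was -6.71, -3.71 and -6.06 in S04, S05 and S06, a mean of -5.49 ± 1.58 (SD, n = 3), and -6.39 without S05. *Emilin1* (chr5:30913786-30921274, plus strand) codes for a glycoprotein at the border of elastin and microfibrils. It had 11, 18 and 25 counts in mESCs, or 1.70, 2.65 and 3.66 CPM, and 293, 560 and 348 counts in CPCCs, or 29.1, 67.9 and 39.9 CPM. S05 was again the highest library and the groups did not overlap. The change on the log2 scale was 4.08 (SE 0.42, adjusted p = 5.05e-05 by edgeR), the smallest of the 6 called genes, from 2.67 ± 0.979 to 45.6 ± 20.0 CPM (SD, n = 3 each).

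Some counts may be shared between genes, since it is not stated whether counting used the strand. In the GENCODE M21 annotation *Eln* overlaps the antisense gene *Gm30003* by 282 bases, *Fbn1* overlaps *Gm9913* by 2793, *Fbn2* overlaps *Gm26507* by 236 and *Efemp2* overlaps *Mus81* by 173, each on the opposite strand. The other 6 genes overlap none. These overlaps are between annotated spans, which for *Fbn1*, *Fbn2* and *Efemp2* reach beyond the positions given above. By those positions *Fbn2* and *Efemp2* end before *Gm26507* and *Mus81* start.

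**Figure D3:**
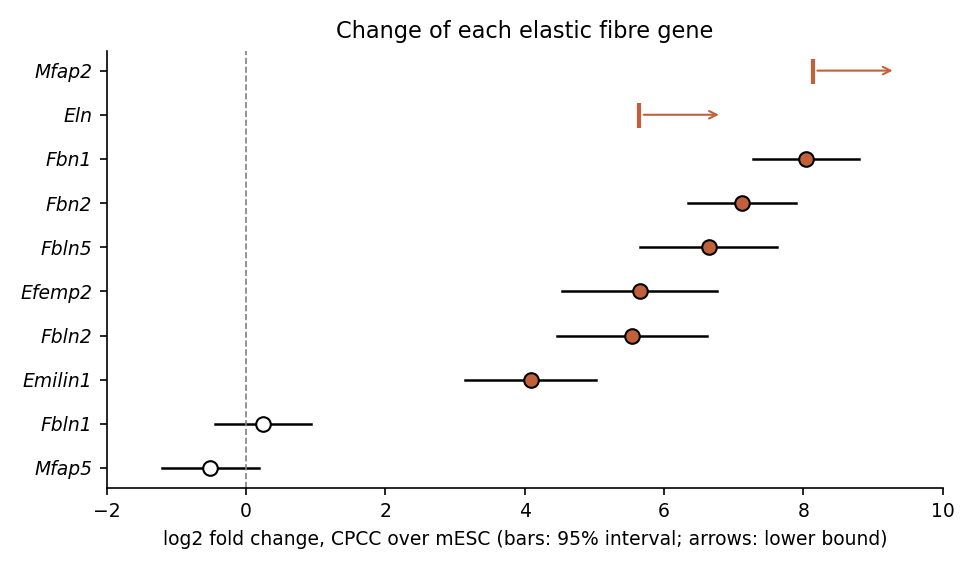
Log2 fold change of each gene, CPCC over mESC, with 95% intervals from edgeR, where filled points passed at an adjusted p under 0.05 and bars with arrows are the lower bounds of the genes missing from the mESC table. The intervals of *Fbln1* and *Mfap5* include 0, and those of the 6 called genes start at 3.14 or above.

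Summed over the 10 genes, the level was 164, 146 and 133 CPM across the mESC libraries, against 1679.9, 2329 and 1456 CPM across the CPCC libraries. The mean sum rose from 147 ± 15.5 to 1822 ± 454 CPM (SD, n = 3 each), 12.4-fold, and the groups did not overlap. The difference in mean log2 sum was 3.60, at p = 0.10 in a two-sided exact permutation test, the smallest p it can give. What made up the sum was different in the 2 cell types. *Fbln1* and *Mfap5* together held 89.3%, 91.2% and 85.2% of it in mESCs, with *Fbln1* alone at 68.1% to 71.5%, and 5.48%, 7.33% and 11.0% in CPCCs. *Fbn1* held 30.7%, 31.3% and 31.2% of the sum in the CPCC libraries, a narrow range beside that of *Fbln2*, which ran from 6.39% to 18.7%. Both fibrillins came to 41.4%, 45.0% and 45.9%, and *Eln* to 0.290%, 2.39% and 0.464%. Shares of CPM favour long transcripts, so levels are also given per length.

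**Figure D4:**
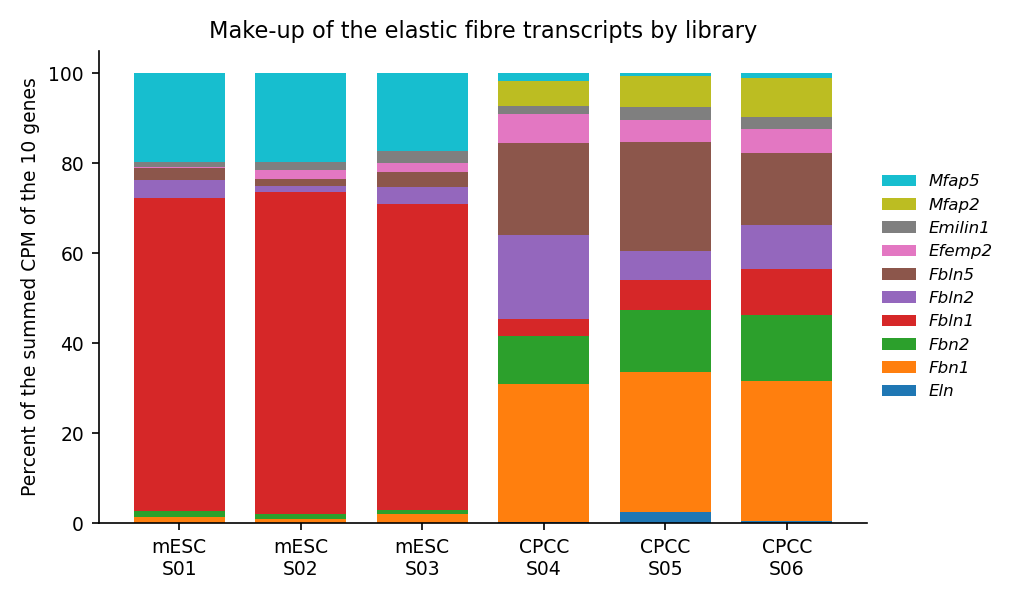
Share of each gene in the summed CPM of the 10 genes, in percent, for each library. *Fbln1* fills 68.1% to 71.5% of the bars of the mESC libraries, and *Fbn1* 30.7% to 31.3% of those of the CPCC libraries.

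On the scale of CPM per kb of exon, with exon lengths from GENCODE M21, *Mfap2* had the highest mean level in CPCCs at 111 ± 27.4 (SD, n = 3). It was followed by *Fbln5* at 62.6, *Fbn1* at 47.2, *Fbln2* at 42.3, *Efemp2* at 33.3, *Fbln1* at 29.6, *Fbn2* at 21.5, *Mfap5* at 13.0, *Emilin1* at 11.8 and *Eln* at 5.82 CPM per kb. Each gene in this order overlapped the next in its 3 libraries, so that only genes further apart can be ranked. In mESCs *Fbln1* led at 25.1 ± 2.88 CPM per kb and *Mfap5* followed at 18.6 ± 3.18, with no overlap between them or with the genes after them. *Fbln2* at 0.910, *Emilin1* at 0.693, *Efemp2* at 0.652 and *Fbln5* at 0.625 CPM per kb overlapped in turn, and *Fbn1* at 0.178 and *Fbn2* at 0.154 had the lowest means. The libraries of *Fbn1* did not overlap those of *Fbln5*, but those of *Efemp2*, from 0.103 to 0.978 CPM per kb, spanned the ranges of both fibrillins.

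The CPCC libraries differed in which of them was high. S05 had the highest level of the 3 for 8 of the 10 genes, where it was the highest for 28.7% of all genes with a mean of at least 1 CPM in CPCCs. S04 was highest for *Fbln2* and *Mfap5*, and lowest for *Eln*, *Fbn2*, *Fbln1*, *Emilin1* and *Mfap2*. S06 was lowest for the other 5. Besides *Eln*, the log2 range over the CPCC libraries ran from 0.60 for *Efemp2* to 1.29 for *Fbln1*, against a median of 0.67 over all genes. The summed level of fibroblast and mesenchymal markers was also highest in S05, at 9229 CPM against 7399 and 6079.9 CPM in S04 and S06. *Col1a1*, *Col1a2* and *Col3a1* made up most of it, at 3535, 3054 and 2075 CPM in S05. Within that list *Prrx1* and *Twist1* were highest in S04 and *Pdgfra* in S06, and the others in S05. The sum of smooth muscle markers was highest in S04, though *Myocd* and *Smtn* were highest in S05. The part of these cell types in the place of S05 was not tested.

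The other genes of the pathway were taken as 8 lists with 59 genes in all, listed by function. Of these, 39 were tested, 29 were higher in CPCCs, 2 were lower and 8 were not called, against 31.7% and 29.7% of all genes tested. A further 16 were listed for CPCCs only, 0 for mESCs only and 4 in neither table. Of all 16279 listed genes, 2518 were listed for CPCCs only and 760 for mESCs only, with deeper libraries in CPCCs. At the median the 39 had a log2 fold change of 3.17. Within each list the genes named are the 4 with the highest mean CPM.

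Of the 5 lysyl oxidases, which cross-link elastin and collagen, 4 were tested and all 4 were higher in CPCCs, with a median log2 fold change of 5.01. *Lox*, the founding enzyme, was listed for CPCCs only, at 1292, 638 and 391 CPM in S04, S05 and S06, and its mean was at least 1727-fold higher there. *Loxl2* had a mean of 5.71 ± 0.554 CPM in mESCs and 631 ± 159 CPM in CPCCs (SD, n = 3 each; log2 change 6.78, SE 0.26, adjusted p = 9.64e-07 by edgeR). *Loxl1*, which acts on elastin in adult tissues, had 2.55 ± 2.14 and 286 ± 67.9 CPM (log2 change 6.79, SE 0.49, adjusted p = 7.84e-06 by edgeR). *Loxl3* changed less, from 11.1 ± 0.811 to 48.9 ± 9.01 CPM (log2 change 2.13, SE 0.22, adjusted p = 5.97e-05 by edgeR).

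All 4 latent TGF-beta binding proteins, which share the domains of fibrillins, were tested, and 3 were higher in CPCCs. *Ltbp4*, a binding partner of fibulin-4 and fibulin-5, stood at 77.5, 77.8 and 63.9 CPM in the mESC libraries, against 42.3, 71.7 and 79.4 CPM after differentiation. Its groups overlapped, with S04 lowest, and the fitted value of log2 fold change was -0.18 (SE 0.24, 95% interval -0.73 to 0.37, adjusted p = 0.54 by edgeR). The log2 fold changes of the others were 4.28 for *Ltbp1*, 5.005 for *Ltbp2* and 5.68 for *Ltbp3*, with standard errors of 0.26, 0.46 and 0.38 and adjusted p-values of 3.45e-06, 2.77e-05 and 5.70e-06 by edgeR.

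Among 8 other fibulins, emilins and microfibril proteins, 5 were tested, 3 were higher, 1 was lower and 1 was not called. *Efemp1*, the short fibulin most like *Efemp2*, had 288, 63.1 and 41.0 CPM in S04, S05 and S06 after at most 1.32 CPM in mESCs (log2 change 7.63, SE 0.98, adjusted p = 0.000184 by edgeR). S04 carried most of that level. *Hmcn1* (6.13) and *Mfap4* (4.43), coding for a giant fibulin-like protein and a microfibril-associated glycoprotein, were also higher, with standard errors of 0.67 and 0.67. *Mmrn2*, an emilin family member of endothelial cells, fell by 3.71 on the log2 scale (SE 0.34, adjusted p = 2.78e-05 by edgeR), from 46.5 ± 5.39 to 3.51 ± 1.66 CPM (SD, n = 3 each).

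Of 9 ADAMTS and ADAMTS-like genes, whose proteins bind or process microfibrils, 4 were tested, 2 were higher, 2 were not called and 5 were listed for CPCCs only. *Adamts10*, a fibrillin-1 binding protein, rose from 0.993 ± 0.155 to 15.5 ± 2.27 CPM (SD, n = 3 each), and its paralogue *Adamts6* was at least 88.9-fold higher in CPCCs at 39.8 ± 8.65 CPM. *Adamtsl4* had a log2 fold change of 0.21 (95% interval -0.74 to 1.16) and *Thsd4* one of 0.88 (95% interval -0.10 to 1.87), with adjusted p = 0.68 and 0.107 by edgeR. All 4 tested partners of the microfibril scaffold were higher, and 2 more were listed for CPCCs only. *Fn1*, the fibronectin on which fibrillin assembles, was already at 1020.5 ± 103 CPM in mESCs and had 3381 ± 1033 CPM in CPCCs (log2 change 1.73, SE 0.23, adjusted p = 0.000204 by edgeR). The rise of *Bgn*, the proteoglycan biglycan, was far larger at 9.96 on the log2 scale (SE 0.48), while *Hspg2* (perlecan) and *Vcan* (versican) had 2.72 and 3.32.

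Integrins are the receptors through which cells hold fibrillin and fibulin-5. All 5 tested subunits were higher in CPCCs, and *Itgb6*, *Itgb8* and *Itga8* were listed for CPCCs only. The log2 fold changes were 4.53 for *Itgb1*, 2.84 for *Itgav*, 3.17 for *Itga5* and 3.63 for *Itgb3*, with standard errors of 0.37, 0.42, 0.21 and 0.25. Of 9 proteases that cleave elastin or activate such enzymes, 4 were tested and 3 were higher. *Mmp2*, a gelatinase, rose from 12.8 ± 4.65 to 1579 ± 299 CPM, and *Mmp14*, its activator, from 7.62 ± 2.20 to 472 ± 105 CPM (SD, n = 3 each). *Ctsl*, a lysosomal protease, was at 184 ± 19.3 CPM in mESCs and changed by 0.97 on the log2 scale (SE 0.30, adjusted p = 0.021 by edgeR). *Ctss* was listed for CPCCs only, at 38.9, 7.15 and 3.78 CPM in S04, S05 and S06, with S04 far above the others.

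TGF-beta signalling, whose latent ligand microfibrils store, held 10 genes, of which 9 were tested. Of these 5 were higher, 1 (*Tgfbr3*, the co-receptor betaglycan) was lower at -2.003, and 3 were not called. *Tgfb2* rose from 1.15 ± 0.490 to 492 ± 244 CPM (SD, n = 3 each; log2 change 8.73, SE 0.50, adjusted p = 2.86e-06 by edgeR). *Tgfbr1*, a receptor kinase, changed by 1.00 (SE 0.25, adjusted p = 0.0066 by edgeR). The signal transducers *Smad2* and *Smad4* had log2 fold changes of 0.17 and 0.36, with 95% intervals of -0.29 to 0.63 and -0.23 to 0.95, and were not called. The list median of 1.00 was the lowest of the 8 lists.

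**Figure D5:**
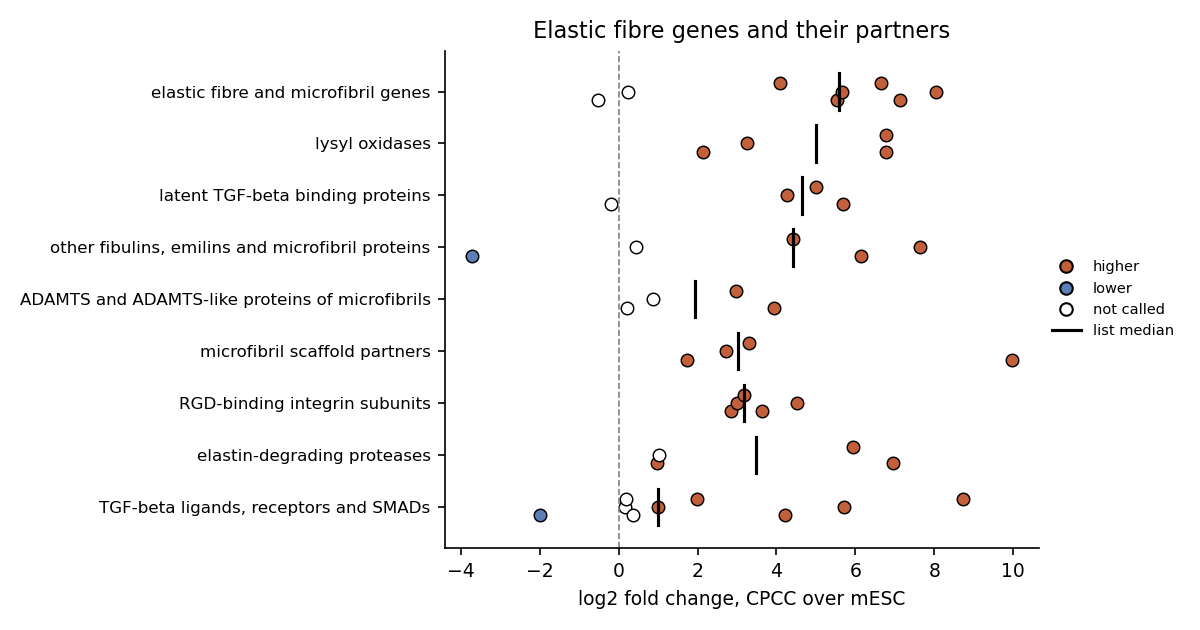
Log2 fold change, CPCC over mESC, of the tested genes of each list, with the list median as a black line and colours for genes that passed higher, lower or not at all at an adjusted p under 0.05 by edgeR. Genes listed in 1 table only are not drawn. List medians run from 1.00 for TGF-beta genes to 5.59 for the elastic fibre and microfibril genes.

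The 5 genes outside these lists whose profile over the 6 libraries was nearest to the mean profile of the 8 tested elastic fibre genes were *Fstl1*, *Cavin3*, *Sgce*, *Pde5a* and *Oaf*. Likeness was the root mean square difference in log2 CPM after centring each gene, which was 0.123, 0.135, 0.138, 0.140 and 0.162 for these genes. Their own log2 fold changes were 4.59 to 4.80. The tested elastic fibre genes lay further from their own mean profile, from 0.466 for *Emilin1* to 2.63 for *Mfap5*. The 5 outside genes were chosen as the nearest of all tested genes, so their smaller distances follow from that choice. The mean profile includes *Fbln1* and *Mfap5*, which were not called.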

How the data were processed

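Bulk RNA-seq was measured in 3 mESC and 3 CPCC libraries, made from polyA+ RNA as SMART-Seq v4 cDNA and sequenced as paired ends. The authors deposited estimated counts per gene, 1 table per cell type, neither normalized nor split by allele. The submitters' processing notes name STAR 2.7 and mm10; the counter and its use of strand are not given in the sources used here. Each table lists only genes with at least 10 counts over its 3 libraries. Groups follow the name of each table and the labels, and no column was matched to a replicate number, so p-values measure the spread between these libraries.

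Counts were rounded. Genes in both tables (13001) were filtered with filterByExpr, leaving 12471, and tested with edgeR 4.0.16 in R 4.3.3 by the quasi-likelihood test with TMM and library sizes over these shared genes. P-values were adjusted by the Benjamini-Hochberg method over all genes tested. CPM uses the same normalized library sizes. Genes missing from the mESC table are given as bounds against 3 counts per library, and bounds and floors cover counting error only. Such bounds apply to group means, since the listing rule limits the sum over 3 libraries and not each library. Ratios used counts plus 0.5, with exact permutation tests in scipy 1.17.1. Alternatives were DESeq2 1.42.0, upper-quartile scaling, totals without TMM, library sizes over whole tables, no filter, at least 10 counts in every library, missing genes at 0 or 3 counts, a 2-fold threshold, and leaving out each library. The fits were also run on simulated counts with 200 genes changed, and the outcome is not given here. Figures were drawn with matplotlib 3.10.9.

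The members and gene lists were chosen with earlier results of these data known. Named are all 10 members, the 4 genes of each pathway list with the highest mean CPM, and the 5 nearest profiles. *Itgb6*, *Itgb8*, *Itga8*, *Tgfbr3* and single markers were named after their values were seen, and so was the count of the highest CPCC library. Gene positions are those of the tables, whose ends can lie 1 base past the annotated end. For *Fbn1*, *Fbn2* and *Efemp2* the span in GENCODE M21 reaches further than these positions. Single-cell and allele-specific data were not analysed here. One neighbouring gene is not reported here.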

Additional observations from a re-analysis of the deposited data

How the results depend on the processing

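The 6 called genes kept their direction and their side of the threshold in every alternative that tested them, with log2 fold changes from 3.68 (*Emilin1*) to 8.28 (*Fbn1*) and an adjusted p of at most 0.000616. Requiring at least 10 counts in every library left 3 of the genes called higher, because *Fbn1*, *Fbn2* and *Efemp2* were no longer tested, and took the median log2 fold change to 4.15 and the pathway genes called higher to 18 of the 59. With genes missing from a table set to 0 counts the median was 6.17 and *Eln* and *Mfap2* were added, giving 8 called higher, as with 3 counts. Leaving out each library in turn gave 6 to 7 genes called higher and 0 to 1 called lower, both upper values from the fit without S04, which called *Fbln1* higher at 0.56 and *Mfap5* lower at -0.89. The log2 difference in the *Fbln5* to *Efemp2* ratio ran from -0.34 (without S02) to 1.67 (without S01) when each library was left out. The mESC ratios were 15.0, 0.75 and 1.72 across S01 to S03, and that of S01 rests on 2 counts of *Efemp2*. DESeq2, like edgeR, called 0 of the genes lower. No paired analysis was possible because the columns carry no replicate numbers. With 3 libraries a group the exact tests cannot go below p = 0.10, and mESC levels near 2 CPM rest on 2 to 20 counts for several genes.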

Other observations

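The chromosomal surroundings of the genes were looked at after their values were seen, within 200 kb of each gene. *Mfap5*, 1 of the 2 genes with a high level in mESCs, lies near genes of pluripotent cells. Of the tested genes within that distance, 5 were lower in CPCCs, 1 was higher and 2 were not called, where 29.7% of all genes tested were lower and 31.7% higher. The windows of other genes also held lower genes. Lower, higher and not called neighbours numbered 3, 1 and 2 for *Eln* and 3, 1 and 3 for *Mfap2*. They numbered 4, 8 and 8 for *Efemp2* and 3, 6 and 5 for *Emilin1*. *Fbn1* and *Fbln2* each had 2, 1 and 1, and *Fbln5* had 1, 1 and 2. *Fbn2* and *Fbln1* had 0 lower. The 5 lower neighbours of *Mfap5* were *Gdf3* (76.1 kb from *Mfap5*), *Dppa3* (97.1 kb), *Phc1* (173 kb), *Nanog* (178 kb) and *Slc2a3* (199 kb), with log2 fold changes of -4.13, -4.91, -1.84, -5.17 and -1.81. *Gdf3* codes for a TGF-beta family ligand of the early embryo, *Dppa3* for the maternal factor Stella, and *Nanog* for a core pluripotency factor. *Mfap5* itself had -0.51 and was not called. *Phc1* lies on one side of *Mfap5* and the other 4 on the opposite side. The nearest tested gene on the side of *Gdf3* was *Apobec1* (48.5 kb), which was higher in CPCCs at 1.29. On the side of *Phc1* the nearest was *Rimklb* (27.3 kb), with 13.1 ± 0.260 CPM in mESCs and 12.3 ± 6.32 CPM in CPCCs (SD, n = 3 each), not called. *Fbln1*, the other gene with a high level in mESCs, has 4 listed genes within 200 kb, of which *Fam118a* and *Atxn10* were tested and not called, with log2 fold changes of 0.09 and 0.08. Neighbours share a chromosome region, and whether they are regulated together was not tested.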
